A study of Mus musculus with 6 samples.

Results

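The leukotriene and lipoxygenase pathway was examined through 8 genes: Alox5, Alox5ap, Alox12, Alox15, Lta4h, Ltc4s, Ltb4r1 and Cysltr1. They were found as the non-control array probes annotated with one of these gene names, which gave 10 of 39429 probes. Alox12 and Cysltr1 had 2 probes each and the other genes had 1. Of the 8 genes, 6 were bright enough to be tested among 16365 genes in all, and Alox12 and Alox15 were not. A gene was tested where the scanner program called a probe well above background in every sample of the heart, or of the spleen, or of both.

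Myeloid cells of C57BL/6N wild-type mice were compared between 2 tissues 3 days after acute myocardial infarction, with 3 samples of the infarcted left ventricle, called heart 1, heart 2 and heart 4 here, and 3 of the spleen, called spleen 1, spleen 2 and spleen 4. All 6 samples came from infarcted mice, and samples of uninjured mice were not analysed here. The sort kept cells high in both CD45 and CD11b that stained little for B220, Thy-1.2, NK-1.1, CD49b and Ly6G, which are antigens of lymphocytes, natural killer cells and neutrophils. Each sample was hybridised to its own single-colour array. The age and sex of the mice, and whether same-numbered heart and spleen samples share a mouse, are not given in the sources used here.

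Leukotrienes are lipid mediators that myeloid cells make from arachidonic acid. 5-Lipoxygenase (Alox5), with the membrane protein FLAP (Alox5ap) that presents the fatty acid to it, makes leukotriene A4, which leukotriene A4 hydrolase (Lta4h) turns into leukotriene B4, an attractant of neutrophils, or leukotriene C4 synthase (Ltc4s) joins to glutathione to give the first of the cysteinyl leukotrienes, known for smooth muscle contraction and vascular leak. Leukotriene B4 is sensed by BLT1 (Ltb4r1) and cysteinyl leukotrienes by CysLT1 (Cysltr1), while the 12- and 12/15-lipoxygenases (Alox12, Alox15) oxidise arachidonic acid at other positions and take part in making other mediators such as lipoxins. Infiltrating leukocytes are a known source of these lipids in injured heart muscle.

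The values below rest on the following probes, shown because a signal can be read only for the stretch of transcript that a probe covers. Each probe has 60 bases, of which 30 are printed, from its 5′ end unless stated otherwise. Capitals mark AATAAA or ATTAAA, the hexamers that direct polyadenylation near the 3′ end of a transcript. Either hexamer, searched on the probe strand only, is present in 16.7% of the 39429 probes, and a match is a description of the letters and not a shown site. Positions are those given for the probe, not for the printed bases, in the mouse build mm9. Their place relative to exons and UTRs was not analysed here.
Alox5 (chr6:116360326-116360385, minus strand): tttatgcttcctccaattgcttgcatagag
Alox5ap (chr5:150099347-150099406, plus strand): agagacgcatcataacgcaatgccgcgaag
Lta4h (chr10:92947503-92947562, plus strand): ggagagatctgaaagtggattaaggaactg
Ltc4s (chr11:50049974-50050031, minus strand, probe bases 28 to 57): tcccagtttttaATTAAAgttcccacgacg
Ltb4r1 (chr14:56387175-56387234, plus strand): cctgacccacttctgtacctggaggagaac
Cysltr1, brighter probe (chrX:103771856-103771915, minus strand, probe bases 25 to 54): tgtttaaagcatAATAAAgagaggactcta
Cysltr1, dimmer probe (chrX:103772044-103772103, minus strand): cagcttggttgtgactaaaatatgatattc
Alox12, brighter probe (chr11:70055715-70055774, minus strand): acactccacattagtattctaactacaggg
Alox12, dimmer probe (chr11:70063629-70063688, minus strand): tcttggctaagatctgggtccgaaattcag
Alox15 (chr11:70159115-70159339, minus strand): gctctggcaagtcatgaatcggtacgtggt
The Alox15 probe spans 225 genomic bases for its 60 bases, and the position given for the Ltc4s probe covers 58. One probe of Cysltr1 and the Ltc4s probe hold a hexamer, and the 8 other probes hold neither.

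RNA levels of the pathway moved in both directions between the tissues. Alox5 was lower and Cysltr1 higher in heart than in spleen, and the other 4 tested genes did not pass the test. Levels are log2 processed intensity minus the 75th percentile of the same array, so that 0 is the 75th percentile, and a fold change is the heart mean minus the spleen mean on that scale. A gene was called where its limma p, adjusted over the whole table by Benjamini and Hochberg, was under 0.05. Of the 6 tested genes, 1 was called higher and 1 lower, where 9.07% of all tested genes were called higher and 6.4% lower, 15.5% in all. At an unadjusted p under 0.05 there were 4 of the 6, against 32% of all tested genes. The 3 heart values and the 3 spleen values did not overlap for 4 of the 6 genes, higher in heart for Ltc4s and Cysltr1 and lower for Alox5 and Lta4h, against 41.1% of all tested genes (24.8% higher, 16.3% lower). The median log2 fold change was 0.29 over the 6 genes, with a range from −2.99 to 2.12, and 0.11 over all tested genes. The median of all genes was 0.20 with arrays scaled to their median and 0.03 with quantile scaling, so small changes are within the choice of scaling.

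**Figure D1:**
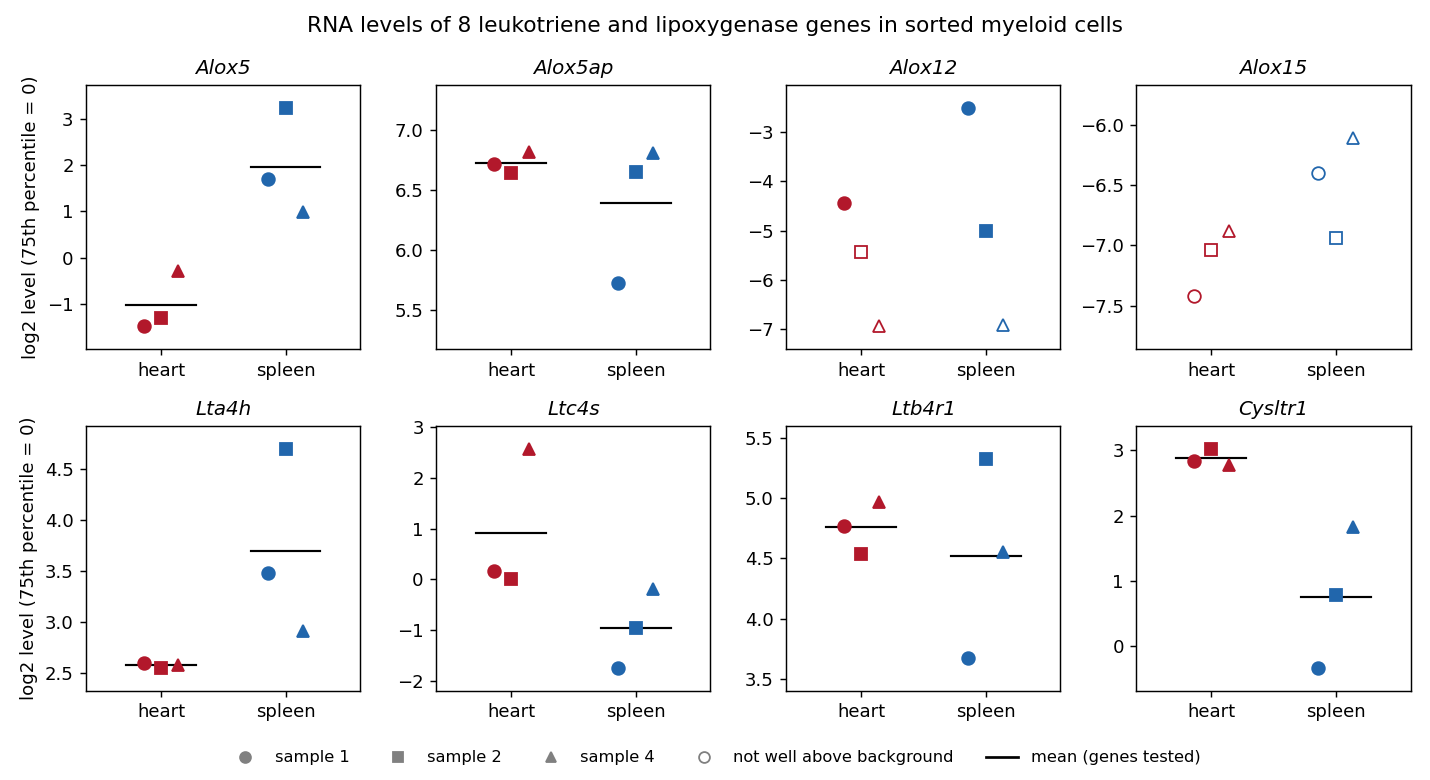
Log2 level (array 75th percentile at 0) of each of the 8 genes in the 3 heart samples (red, left) and the 3 spleen samples (blue, right), with symbols for the sample number, open symbols where the probe was not well above background, and lines for the means of tested genes. Axes differ between panels, Alox12 is drawn by its brighter probe, and the 3 heart values lie below all spleen values for Alox5 and Lta4h and above them for Ltc4s and Cysltr1.

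The arrays were of like quality, but the spleen samples varied more. The share of probes well above background was 52.8% to 56.5% on the heart arrays and 55.7% to 63.6% on the spleen arrays, and 0 spots were saturated. The SD of a gene was 0.143 log2 units over heart samples and 0.406 over spleen samples at the median. The RNA of Ptprc and Itgam, which encode the sorted antigens CD45 and CD11b, was not called different between the tissues. All 10 monocyte and macrophage markers were well above background on all 6 arrays. Markers of neutrophils, which the sort on Ly6G was to leave out, were present and were higher in the spleen samples, as given beside the genes below. A slide held heart 1 with spleen 4, another held the other 2 hearts and a further one the other 2 spleens, while heart 4 and spleen 4 carried the later of 2 dates in their titles. For a gene with a value on all 6 arrays, a fit with slide as a fixed block therefore rests on heart 1 against spleen 4 alone, 1 sample per tissue. Spleen 1 stood apart in lymphocyte and dendritic cell markers, although the sort was on low B220 and Thy-1.2. The summed linear level of 6 B cell markers was 0.767 to 1.26 in heart samples, against 99.7 in spleen 1, 4.03 in spleen 2 and 3.4 in spleen 4. That of 6 T and NK cell markers was 2.65 to 2.85 in heart samples, against 27.1, 12 and 2.64 in spleens 1, 2 and 4, and that of 7 dendritic cell markers was 4.27 to 6.06 in heart samples, against 19.3, 3.16 and 7.08 in spleens 1, 2 and 4.

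Alox5 encodes 5-lipoxygenase, the enzyme that starts leukotriene synthesis, and its RNA was 7.92-fold lower in heart. The log2 level of Alox5 was −1.48 in heart 1, −1.30 in heart 2 and −0.29 in heart 4, against 1.69 in spleen 1, 3.23 in spleen 2 and 0.98 in spleen 4. Every heart sample was below every spleen sample. On the intensity scale the heart samples gave 573 to 1450 units and the spleen samples 3510 to 15600 units. The mean Alox5 log2 level was −1.02 ± 0.64 in heart and 1.96 ± 1.15 in spleen (SD, n = 3 each), a log2 fold change of −2.99 ± 0.62 (SE, limma, adjusted p = 0.0258, 95% interval −4.47 to −1.51).

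The size of the Alox5 difference varied with which samples were set against each other. The difference was −2.45 between the heart and spleen samples that shared a slide and −1.27 between those of the later title date. With slide as a fixed block, the log2 fold change was −2.45 and the adjusted p 0.268. The call was also lost when any heart sample was left out (adjusted p 0.0687 to 0.104), with fold changes of −3.35 to −2.76. Without spleen 2 the log2 fold change was −2.36 (limma, adjusted p = 0.0371), and within the earlier title date, with 2 samples per tissue, it was −3.85 (limma, adjusted p = 0.0337).

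Among the spleens, Alox5 ran in the same order as the marker lists of neutrophils, granulocyte precursors, basophils and mast cells, and fibroblasts. The summed linear level of 10 neutrophil markers was 65.5 to 79.2 in heart samples, against 815 in spleen 1, 1210 in spleen 2 and 550 in spleen 4. All 10 were well above background in each spleen sample, and 7 were called lower in heart and 0 higher. S100a9 had the highest mean spleen level of that list, with a log2 level of 2.70 in heart and 7.5 in spleen, and Csf3r had the highest mean heart level, 5.53 in heart and 5.58 in spleen. The summed level of 5 markers of granulocyte precursors was 7 to 7.39 in heart samples, against 71.6, 214 and 16.4 in spleens 1, 2 and 4, and 4 of the 5 were called lower in heart. The summed level of 8 basophil and mast cell markers was 2.5 to 2.99 in heart samples, against 12, 15.9 and 2.01 in spleens 1, 2 and 4, where spleen 4 was below the hearts. The summed level of 5 fibroblast markers was 0.9 to 3.25 in heart samples, against 0.0818, 0.121 and 0.0671 in spleens 1, 2 and 4. Only 2, 1 and 0 of the 5 were well above background in those spleens, so their order for this list is mostly one of background signal. Spleen 2 was highest and spleen 4 lowest of the spleens for Alox5 and for all of these lists, an order of 3 samples only. Among the hearts, Alox5 was highest in heart 4. The neutrophil sum was 68.7, 79.2 and 65.5 in hearts 1, 2 and 4, and the basophil and mast cell sum was 2.99, 2.61 and 2.5. That of granulocyte precursors was 7.12, 7 and 7.39. The part of these cells in the Alox5 difference was not tested. In sorted bulk samples, fewer cells of a type and less RNA per cell cannot be told apart.

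**Figure D2:**
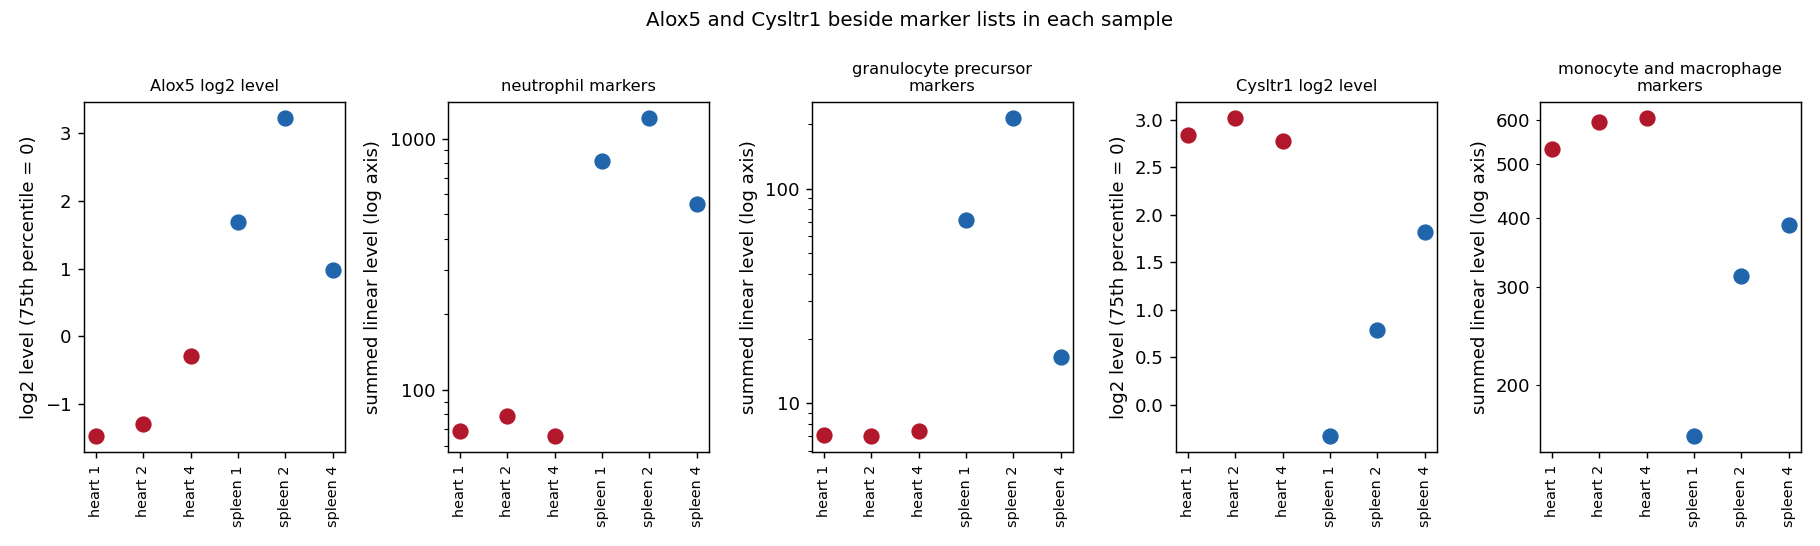
Log2 levels of Alox5 and Cysltr1 and summed linear levels (log axes) of 10 neutrophil, 5 granulocyte precursor and 10 monocyte and macrophage markers in each heart sample (red, left) and spleen sample (blue, right). Among the spleens, spleen 2 is highest and spleen 4 lowest for Alox5 and both granulocyte lists, and spleen 1 is lowest for Cysltr1 and for the monocyte and macrophage list.

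Alox5ap encodes FLAP, without which cells make little leukotriene, and its level was not called different. The log2 level of Alox5ap was 6.72, 6.64 and 6.82 in hearts 1, 2 and 4, against 5.73, 6.65 and 6.81 in spleens 1, 2 and 4. Spleen 1 was below the other 5 samples, and spleens 2 and 4 lay within or beside the heart range. The mean was 6.73 ± 0.09 in heart and 6.40 ± 0.58 in spleen (SD, n = 3 each), a log2 fold change of 0.33 ± 0.31 (SE, limma, adjusted p = 0.51). The 95% interval, −0.41 to 1.07, leaves room for changes of about 1 log2 unit upward. Without spleen 1 the log2 fold change was 0.00, and it was −0.09 on the shared slide and 0.02 within the later title date. Alox5 and Alox5ap, whose products work together, thus gave log2 fold changes of −2.99 and 0.33, a difference between the genes that was not itself tested.

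Lta4h encodes the hydrolase that makes leukotriene B4 and also cleaves peptides. Its log2 level was 2.60, 2.55 and 2.58 in hearts 1, 2 and 4, against 3.48, 4.69 and 2.91 in spleens 1, 2 and 4. The heart samples lay within 0.05 of each other and below every spleen sample, and the spleens were spread widely, with spleen 2 again highest. The mean was 2.58 ± 0.03 in heart and 3.70 ± 0.91 in spleen (SD, n = 3 each), a log2 fold change of −1.12 ± 0.44 (SE, 95% interval −2.18 to −0.06). It did not pass the test (limma, adjusted p = 0.139, unadjusted p = 0.0411). The difference was −0.31 on the shared slide and −0.33 within the later title date. It was −0.62 without spleen 2, and −1.51 without spleen 4, where it was called (limma, adjusted p = 0.0387). The spleens ranked the same way for Lta4h as for Alox5 and for the neutrophil markers above, whose part in the values was not tested.

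Ltc4s encodes the synthase that makes leukotriene C4, the parent cysteinyl leukotriene. Its log2 level was 0.17 in heart 1, 0.00 in heart 2 and 2.57 in heart 4, against −1.74 in spleen 1, −0.96 in spleen 2 and −0.19 in spleen 4. Heart 4 stood well above the other 2 hearts, heart 2 and spleen 4 lay 0.18 apart, and the tissues did not overlap. In each tissue the sample of the later title date was highest. The mean was 0.91 ± 1.44 in heart and −0.96 ± 0.78 in spleen (SD, n = 3 each), a log2 fold change of 1.88 ± 0.76 (SE, 95% interval 0.06 to 3.69). It did not pass the test (limma, adjusted p = 0.147, unadjusted p = 0.0451).

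The value for Ltc4s rested much on heart 4. Without that sample the log2 fold change was 1.05 (limma, adjusted p = 0.267). The difference was 0.35 on the shared slide and 2.75 within the later title date, and with the title date as a block the fold change of 1.88 was called (limma, adjusted p = 0.0311). Mast cells, basophils, eosinophils and platelets are known for making cysteinyl leukotrienes or leukotriene C4. Of the basophil and mast cell list, whose summed level was 2.99, 2.61 and 2.50 in hearts 1, 2 and 4, Hdc and Tpsb2 were well above background in all 3 hearts, Cma1 in 1, and Mcpt8, Cpa3, Ms4a2, Fcer1a and Gata2 in 0. Hdc, the brightest of the list, had a mean log2 level of 1.35 in heart and 2.64 in spleen. The summed level of 7 eosinophil markers was 0.765 to 0.805 in heart samples and 1.36 to 3.55 in spleen samples, with Ear6 the brightest in both tissues. Ear6, Il5ra and Siglecf were well above background in all 3 hearts, Ccr3 in 2, and Epx, Prg2 and Prg3 in 0, and of the 4 tested genes 1, Prg2, was called lower in heart. The summed level of 9 platelet markers was 6.39 to 8.54 in heart samples, mostly from Ppbp, and 1.09 to 2.99 in spleen samples. Of the 5 tested, Ppbp was called higher in heart, Itgb3 lower and 3 neither. In every heart 5 of the 9 were well above background, and Itga2b, Gp9, Gp1ba and Tubb1 in 0. The part of any of these cells in the Ltc4s level was not tested.

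Ltb4r1 encodes BLT1, the high-affinity receptor for leukotriene B4 that guides leukocytes to it. Its log2 level was 4.77, 4.54 and 4.97 in hearts 1, 2 and 4, against 3.67, 5.33 and 4.55 in spleens 1, 2 and 4. The hearts lay inside the range of the spleens, of which spleen 1 was lowest and spleen 2 highest. The mean was 4.76 ± 0.22 in heart and 4.52 ± 0.83 in spleen (SD, n = 3 each), a log2 fold change of 0.24 ± 0.42 that was not called (SE, limma, adjusted p = 0.73, 95% interval −0.76 to 1.25). Its sign depended on the scaling, with −0.17 under quantile scaling and −0.15 in the series value table, and it was −0.18 without spleen 1. The difference was 0.22 on the shared slide and 0.43 within the later title date.

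Cysltr1 encodes CysLT1, the receptor for leukotriene D4 and the target of montelukast, and its RNA was 4.34-fold higher in heart. On the brighter probe the log2 level of Cysltr1 was 2.84 in heart 1, 3.02 in heart 2 and 2.78 in heart 4, against −0.33 in spleen 1, 0.79 in spleen 2 and 1.82 in spleen 4. The hearts lay close together and above every spleen, and the spleens differed from each other by up to about the size of the tissue difference. On the intensity scale the heart samples gave 11400 to 12400 units and the spleen samples 1570 to 6310 units. The mean Cysltr1 log2 level was 2.88 ± 0.12 in heart and 0.76 ± 1.08 in spleen (SD, n = 3 each), a log2 fold change of 2.12 ± 0.51 (SE, limma, adjusted p = 0.0401, 95% interval 0.88 to 3.36).

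The dimmer Cysltr1 probe ranked the samples alike. Its log2 level was 0.54, 0.83 and 0.39 in hearts 1, 2 and 4, against −2.79, −1.75 and −0.36 in spleens 1, 2 and 4. The log2 fold change on that probe was 2.22 ± 0.58 (SE) and was not called when all tested probes were adjusted together (limma, adjusted p = 0.0506). Both probes belong to the same transcript and are not independent replicates.

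On the brighter Cysltr1 probe the difference was 1.01 on the shared slide and 0.96 within the later title date. With slide as a fixed block the log2 fold change was 1.01 (limma, adjusted p = 0.476). The call was lost under quantile scaling (adjusted p = 0.0503) and without heart 1, heart 2, heart 4 or spleen 2 (limma, adjusted p 0.0916 to 0.136), where the fold change was between 2.05 and 2.17. The summed level of the 10 monocyte and macrophage markers was 532 to 605 in heart samples, against 162 in spleen 1, 315 in spleen 2 and 389 in spleen 4. The 3 spleens ranked for that list as they did for Cysltr1. The hearts did not, since the sum was 532, 595 and 605 in hearts 1, 2 and 4, and Cysltr1 was lowest in heart 4. Of the list, 4 genes were called higher in heart and 0 lower, and Lyz2, its brightest gene in both tissues, had a log2 fold change of 0.15 and was not called. The summed level of 6 cardiomyocyte markers also ranked the spleens as Cysltr1 did. It was 0.202, 0.237 and 0.273 in spleens 1, 2 and 4, where 2 to 3 of the 6 were well above background, and 0.53 to 0.904 in hearts. Spleen 1, the lowest for Cysltr1, was also the spleen with the most lymphocyte and dendritic cell marker RNA given above. Without spleen 1 the Cysltr1 log2 fold change was 1.57 (limma, adjusted p = 0.0343), and within the earlier title date it was 2.70 (limma, adjusted p = 0.04). The part of these cell types in the Cysltr1 difference was not tested.

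**Figure D3:**
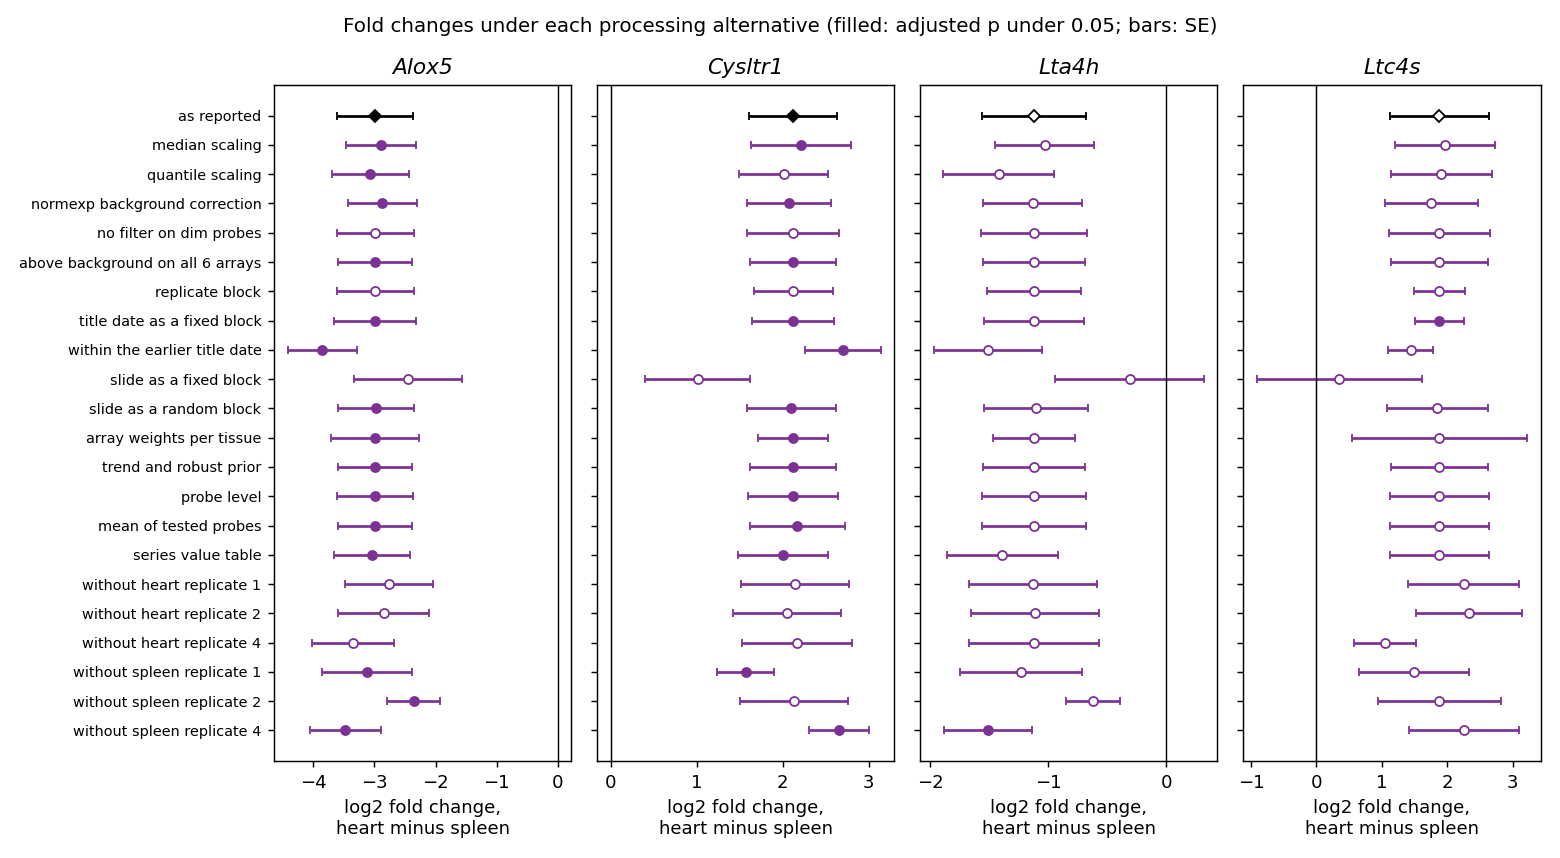
Log2 fold changes (heart minus spleen, bars are SE) of Alox5, Cysltr1, Lta4h and Ltc4s as reported (black diamonds) and under each of 21 alternatives (purple circles), filled where the adjusted p was under 0.05. The direction is the same in all rows, Alox5 is filled in 15 and Cysltr1 in 13 of the 21 alternatives, and slide as a fixed block gives the value nearest to 0 for Cysltr1, Lta4h and Ltc4s.

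Alox12 encodes the platelet-type 12-lipoxygenase, and its signal was well above background in 3 of the 6 samples on its brighter probe. On its brighter probe the log2 level was −4.44, −5.44 and −6.94 in hearts 1, 2 and 4, against −2.51, −5.01 and −6.92 in spleens 1, 2 and 4. Those samples were heart 1, spleen 1 and spleen 2, with intensities of 73.6, 349 and 51.8 units. On its dimmer probe only spleen 1 was well above background, at 43.9 units. No fold change is given, since the gene was not tested. Spleen 1, the sample with the highest Alox12 signal on both probes, had the highest B cell, T and NK cell, dendritic cell and eosinophil marker sums of all samples. All 9 platelet markers were well above background in it, against 5 in each heart sample, 6 in spleen 2 and 5 in spleen 4. Their summed level was 2.99 in spleen 1 and 6.39 to 8.54 in heart samples. In the hearts that sum was mostly Ppbp, with a mean log2 level of 2.82 in heart and −3.01 in spleen. Of the 5 tested markers, Ppbp was called higher in heart, Itgb3 lower (log2 fold change −2.58) and 3 neither. The part of these cells in the Alox12 signal was not tested.

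Alox15 encodes the mouse 12/15-lipoxygenase, which is known from eosinophils and resident peritoneal macrophages. It was not well above background in any of the 6 samples. Its intensity was 9.34, 11.7 and 15.0 units in hearts 1, 2 and 4, against 23.5, 13.7 and 25.8 units in spleens 1, 2 and 4. For comparison on the log2 scale, its levels of −7.42 to −6.88 in heart and −6.94 to −6.11 in spleen lay below the lowest level of any probe well above background on the same array, which was between −5.15 and −4.76 on heart arrays and between −5.82 and −5.30 on spleen arrays. These arrays thus gave no measure of a tissue difference for Alox15.

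The 8 genes were set in a wider pathway of 35 further genes, which had a probe each at least and of which 27 were tested. Of these, 4 were called higher in heart, 3 lower and 20 not, where 9.07% of all tested genes were called higher and 6.4% lower. The tissues did not overlap for 8 genes higher and 4 lower, 12 of 27, against 41.1% of all tested genes, which is near that background. The median log2 fold change was 0.05, against 0.11 over all tested genes. The genes named below are every called gene and the brightest tested gene of each list that was not called, with exceptions stated.

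At the step before 5-lipoxygenase, Pla2g4a, which encodes the cytosolic phospholipase that frees arachidonic acid from membranes, was higher in heart. Its log2 level was 2.26, 2.28 and 2.35 in hearts 1, 2 and 4, against −0.07, 1.21 and 1.11 in spleens 1, 2 and 4. The hearts were close together and all above the spleens, for a log2 fold change of 1.55 ± 0.36 (SE, limma, adjusted p = 0.0344). The call was lost when any heart sample was left out (limma, adjusted p 0.12 to 0.123), within the earlier title date (0.108), with no filter on dim probes (0.0689) and with the number in the titles as a replicate block (0.0522). It was the only called gene of 4 tested of 6 for arachidonate release, and Pla2g4b, the brightest that was not called, had a log2 fold change of 0.17 that turned to −0.10 under quantile scaling. Of the 3 tested of 4 other lipoxygenases and of the 5 tested of 5 genes for 5-lipoxygenase partners and peroxide tone, limma called 0. At an unadjusted p under 0.05 there were 0 of the lipoxygenases and 1 of the partners, Cotl1, which binds 5-lipoxygenase and had a log2 fold change of 0.68 (limma, adjusted p = 0.0954). Alox12b, a lipoxygenase of the skin barrier, had a log2 fold change of 0.14 and Gpx1, a peroxidase that lowers the peroxides that activate 5-lipoxygenase, of 0.16.

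Genes for making, exporting and converting cysteinyl leukotrienes changed in both directions, with 1 called higher and 2 lower of 6 tested of 7. Mgst2, which encodes a microsomal glutathione transferase that can also make leukotriene C4, had a log2 level of −2.07, −1.64 and −1.98 in hearts 1, 2 and 4, against 3.90, 5.14 and 2.09 in spleens 1, 2 and 4. That was a log2 fold change of −5.61 ± 0.72 (SE, limma, adjusted p = 0.0071), and spleen 2 was highest and spleen 4 lowest, as for Alox5. It was −4.89 without spleen 2, −6.42 without spleen 4 and −4.17 on the shared slide, and it was called in each fit that left out 1 sample (limma, adjusted p 0.00131 to 0.0442). Mgst2 and Ltc4s, which can catalyse the same step, thus lay on opposite sides of 0, although the Ltc4s value did not pass the test. Abcc1, the pump that exports leukotriene C4, had a log2 level of 2.11, 1.83 and 2.25 in hearts 1, 2 and 4, against 0.22, 0.21 and 0.56 in spleens 1, 2 and 4. Its log2 fold change was 1.73 ± 0.20 (SE, limma, adjusted p = 0.00501). Ggt5, which turns leukotriene C4 into D4, had a log2 fold change of −1.23 ± 0.27 (SE, limma, adjusted p = 0.0319) at levels of −4.26 to −3.81 in heart and −3.33 to −2.44 in spleen. That call held in 12 of 21 alternatives. It was lost when any heart sample was left out (limma, adjusted p 0.0849 to 0.133) and with median scaling (limma, adjusted p = 0.0548). With normexp background correction the log2 fold change was −0.73 (limma, adjusted p = 0.0646). The call was also lost with no filter on dim probes (limma, adjusted p = 0.0663), with the replicate block (0.0629) and within the earlier title date (0.101). Mgst3, the brightest gene of the list that was not called, had a log2 fold change of −0.23. Dpep2, a dipeptidase that turns leukotriene D4 into E4, was chosen after its values were seen and had a log2 fold change of 2.07 ± 0.56 that was not called (SE, limma, adjusted p = 0.0535).

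Of 4 tested of 6 genes for the breakdown of leukotriene B4, limma called 0, and 1 had an unadjusted p under 0.05. That gene, Cyp4f18, encodes a leukotriene B4 hydroxylase of mouse neutrophils. Its log2 level was 5.92, 6.03 and 6.02 in hearts 1, 2 and 4, against 4.76, 5.24 and 5.73 in spleens 1, 2 and 4, a log2 fold change of 0.74 ± 0.27 (SE, limma, adjusted p = 0.114). Without spleen 4 the log2 fold change was 0.99 and was called (adjusted p = 0.0237).

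Among 7 other receptors for lipid mediators, 5 were tested, 2 called higher in heart and 1 lower. Cmklr1, which encodes the chemerin receptor that is also reported to bind resolvin E1, had a log2 level of −1.43, −1.61 and −1.76 in hearts 1, 2 and 4, against −5.50 and −4.23 in spleens 1 and 2. The spot of spleen 4 was marked as an outlier and dropped, so the log2 fold change of 3.26 ± 0.41 rests on 2 spleens (SE, limma, adjusted p = 0.00989). With that spot dropped, Cmklr1 passed the filter only through the hearts, although it was well above background in spleens 1 and 2. Its call is among those counted above, and it was lost when any heart sample was left out (limma, adjusted p 0.0539 to 0.0547). In the series value table, which holds a value for spleen 4, the log2 fold change was 2.54 (limma, adjusted p = 0.0973). Gpr31b, the mouse relative of a human receptor for a 12-lipoxygenase product, was not well above background in any spleen sample and was tested only because it was above it in every heart. It was at least 5.49-fold higher in heart on the reported scale. The call (limma, adjusted p = 0.00759) belongs to the fitted log2 fold change of 2.88 and not to that bound. That fit used spleen levels not well above background. The gene passed the filter only through the hearts, so its call, though counted above, adds little to its detection. With normexp background correction the fitted log2 fold change was 1.54, a smaller difference than that bound. Gpr18, reported to bind resolvin D2, had a log2 level of −1.71, −2.07 and −2.04 in hearts 1, 2 and 4, against 1.44, 0.01 and 1 in spleens 1, 2 and 4. Its log2 fold change was −2.76 ± 0.38 (SE, limma, adjusted p = 0.00856). The call was lost without heart 4 (limma, adjusted p = 0.0518) and within the earlier title date (limma, adjusted p = 0.0627). Fpr2, a formyl peptide receptor that also binds lipoxin A4, had a log2 fold change of −0.74 and was not called (limma, adjusted p = 0.0776), but was called under quantile scaling at −1.07 and without spleen 4 at −0.86. No call of these lists held with slide as a fixed block, which compares heart 1 with spleen 4 alone where both have a value. The log2 fold change was then 1.15 for Pla2g4a, 1.55 for Abcc1, −4.17 for Mgst2, −1.49 for Ggt5 and −2.71 for Gpr18. For Gpr31b it was 3.33, against a spleen level not well above background. Cmklr1 has no value for spleen 4. Its 3.18 in that fit came from hearts 2 and 4 against spleens 1 and 2, which share no slide.

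**Figure D4:**
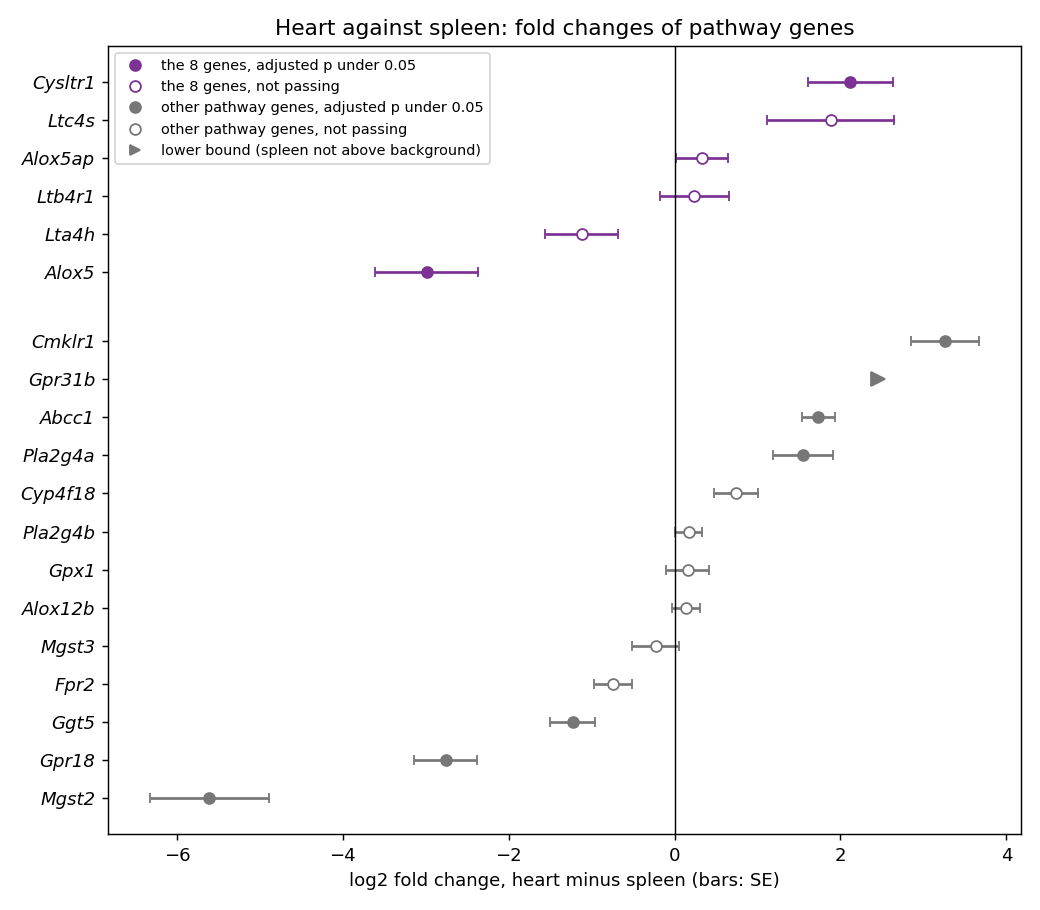
Log2 fold changes (heart minus spleen, bars are SE) of the 6 tested genes (purple) and of the 13 other pathway genes named by the rule (grey), filled where the adjusted p was under 0.05, with a triangle for the lower bound of Gpr31b. Of the 6 genes only Cysltr1 lies to the right and Alox5 to the left with a passing test, and the values run from −5.61 for Mgst2 to 3.26 for Cmklr1.

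For each tested gene, the 2 other genes whose levels over the 6 arrays followed it most closely were found by the root mean square difference of log2 levels after each gene was centred on its own mean. For Alox5 these were Syne2 (0.231) and Fmo5 (0.233), and for Cysltr1 they were Eps8 (0.072) and Ang4 (0.094). For Alox5ap they were Cmtm7 (0.044) and Timm10b (0.053), for Lta4h Rnf26 (0.067) and LOC100039011 (0.099), and for Ltb4r1 Rhou (0.105) and Slc16a8 (0.121). Ltc4s had no close companion, with 3010033K07Rik at 0.456 and Ccn1 at 0.579. A small difference over 6 arrays from 2 tissues is a description of these samples, which share tissue, slides and the wide spread of the spleens.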

How the data were processed

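RNA of 3 heart and 3 spleen samples was measured on single-colour arrays. The scanner files, as deposited, hold intensities of spots that the authors corrected for background and did not scale between arrays, per the file headers. The submitters' processing notes name Agilent Feature Extraction 10.7.3.1. The series value table was deposited as log2 values. Its differences between arrays followed those of quantile-normalized log2 signals across 19313 probes for 15 pairs of arrays (r between 0.9995 and 0.9999, slope between 0.9903 and 0.9952). Every column's median was 0 and the baseline subtracted from each probe is unknown. The table was therefore used as an alternative only.

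Log2 intensity minus each array's 75th percentile over non-control spots was used, and outlier spots were dropped, with spots of a probe averaged. A probe was tested if it was well above background in all 3 samples of either tissue, with at least 2 values in each. A gene was represented by its brightest tested probe. Names came from the files or, for 26412 of 39429 probes, from a RefSeq table of GRCm38.p6. Positions are in mm9, per the file headers. The tissues were compared by lmFit and eBayes of limma 3.58.1 (R 4.3.3), two-sided and without covariates, and the fit was checked on simulated data. Other software was version 1.17.8 of data.table, Python 3.11.15 and matplotlib 3.10.9. SEs are of the moderated fit.

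A gene below that limit in every sample of a tissue has only a bound. The dim tissue then enters as the mean over its arrays of the lowest level well above background, or of the probe's own level where that is higher. The number of arrays limits the precision. Samples were grouped by their titles, which do not say that same-numbered samples share a mouse. No pairing was assumed. The p-values test the difference between the tissue means against the spread between these samples. That spread was pooled over the tissues, although the spleens varied more than the hearts. Named genes are the 8 genes, every called gene and the brightest uncalled gene of each pathway list, the 2 closest patterns per tested gene, and the brightest markers per tissue. Cotl1, Dpep2 and further markers were chosen after their values were seen. The genes, lists and tests were chosen with earlier results of these data known. Alternatives were scaling, background correction, the filter, blocks, left-out samples, variance models, probe choice and the value table.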

Additional observations from a re-analysis of the deposited data

How the results depend on the processing

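The count of called genes, 2532 as reported, was 1479 with no filter on dim probes, 1533 with the replicate block, 92 with slide as a fixed block, and between 463 (without heart 1) and 4202 (without spleen 4) with a sample left out. It was 490 without heart 2 and 510 without heart 4. The 1 pathway gene of the 8 called higher became 0 with quantile scaling, with no filter, with the replicate block and with slide as a fixed block, 2 with the title date as a block, and 0 to 1 with a sample left out. The 1 called lower became 0 with no filter, with the replicate block and with slide as a fixed block, and 0 to 2 with a sample left out. At an unadjusted p under 0.05, slide as a fixed block left 0 higher and 1 lower. Of the 35 further genes, the 4 called higher became 0 with slide as a fixed block and 2 to 7 with a sample left out, and the 3 called lower became 1 within the earlier title date, 0 with slide as a fixed block and 1 to 4 with a sample left out.

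The adjusted p of Alox5 was 0.0509 with no filter and 0.0533 with the replicate block, and that of Cysltr1 was 0.077 and 0.0546. Deviations of same-numbered hearts and spleens correlated at −0.05, 0.04 and 0.01 across 16304 genes, and heart 1 correlated best with spleen 2. Pairs with different numbers gave −0.07 to 0.05. The check thus showed no sign of pairing, but values this small cannot decide whether samples share a mouse. Over 21 alternatives the adjusted p lay between 0.0128 and 0.268 for Alox5 and between 0.00697 and 0.476 for Cysltr1. Signs turned for Ltb4r1 (−0.17 with quantile scaling, −0.15 in the value table, −0.18 without spleen 1), Alox5ap (−0.09 with slide as a fixed block, 0.00 without spleen 1), Pla2g4b (−0.10 with quantile scaling, −0.07 in the value table), Gpx1 (−0.08 with slide as a fixed block, −0.11 without spleen 1) and Mgst3 (0.03 without spleen 4). With a sample left out, the ranges were −0.18 to 0.65 for Ltb4r1, 0.00 to 0.54 for Alox5ap, −0.43 to 0.03 for Mgst3 and −0.11 to 0.30 for Gpx1. The cause was not tested, except that the unfiltered fit adjusted over 28298 genes. Signal over background limits Alox12 and Alox15.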
